A study of Mus musculus with 8 samples.

Results

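Listed fragments of the cysteine tRNA with anticodon GCA (Cys-GCA) were examined in islet cells exposed to pro-inflammatory cytokines. The members were chosen by their names from tables that were themselves selected on the difference between these groups. They were every row of the authors' deposited tables with a nuclear tRNA-Cys-GCA parent, whatever its class or direction, 9 of 112 listed tRNA-derived fragments (tRFs). The cells came from dissociated islets of Langerhans of 12-week-old C57BL/6NRj mice, labelled mainly beta and alpha cells. The control group (4 libraries) was untreated, and the cytokine group (4 libraries) received IFN-γ at 30 ng/mL, TNF-α at 10 ng/mL and IL-1β at 0.1 ng/mL for 24 h. The question behind the series was how such cytokines affect tRF levels, and nothing in the labels says that the libraries came from separate animals or cultures. The tables hold tRFs only, so the labelled cell types could not be checked against marker genes, and a different number of cells of 1 type cannot be told apart from a different tRF content per cell. Small RNA libraries were made after a pretreatment meant for tRFs, and the effective library sizes ran from 367454 to 939108 reads.

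Transfer RNAs fold into a cloverleaf whose anticodon loop reads the codon, whose T arm carries a conserved loop, and whose acceptor stem ends in the CCA tail that holds the amino acid. Nucleases can cut tRNAs in their exposed loops, and the pieces are called 5′, 3′ or internal tRFs by the part of the tRNA they keep. Angiogenin is the best-known stress-activated nuclease that cuts in the anticodon loop. Mouse tRNA-Cys-GCA is encoded by many gene copies, and those with slightly different bodies but the same anticodon are called isodecoders.

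All 9 members were internal fragments, and they fell into sets by sequence. The Cys-3 set matched 6 genes, 4 of isodecoder Cys-GCA-3 and 1 each of Cys-GCA-7 and Cys-GCA-8. The longer fragments of this set, which end at position 68, matched 5 of these genes, without that of Cys-GCA-8. The Cys-4 set matched 41 genes of 12 isodecoders, 29 of them copies of Cys-GCA-4. By the parent names in the files, 39 of the 47 genes lie on chromosome 6, 5 on chromosome 11, 2 on chromosome 9 and 1 on chromosome 17. Where their fragments overlap, the sets differ by 1 base, C50T from the Cys-3 to the Cys-4 set. Positions are counted from 1 at the first base of the tRNA, and whole parent tRNAs were not compared. Each read of such a sequence could come from any gene of its set, so the values belong to sets and not to genes. All 9 sequences are shown because their 3′ ends separate those listed up from those listed down. Capitals mark the anticodon bases that each fragment keeps (positions 33 to 35) and, further right, the base at position 50. They are written 5′ to 3′ as DNA letters.

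Cys-3 22 to 68, listed up: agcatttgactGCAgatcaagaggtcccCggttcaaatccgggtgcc
Cys-3 27 to 68, listed up: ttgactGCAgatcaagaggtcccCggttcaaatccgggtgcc
Cys-3 24 to 54, listed down: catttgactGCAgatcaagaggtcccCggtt
Cys-3 28 to 54, listed down: tgactGCAgatcaagaggtcccCggtt
Cys-3 34 to 53, listed down: CAgatcaagaggtcccCggt
Cys-3 35 to 54, listed down: AgatcaagaggtcccCggtt
Cys-4 24 to 54, listed down: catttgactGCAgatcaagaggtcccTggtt
Cys-4 27 to 54, listed down: ttgactGCAgatcaagaggtcccTggtt
Cys-4 28 to 54, listed down: tgactGCAgatcaagaggtcccTggtt

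Both members listed up ended at position 68 and were 42 and 47 nt long. All 7 listed down ended at position 53 or 54 and were 20 to 31 nt long. In the longer fragments positions 48 to 52 (cccgg) and 60 to 64 (ccggg) are complementary and enclose the 7 bases ttcaaat at positions 53 to 59, the T arm. The fragments listed down therefore stopped at the first or second base of the T loop, and those listed up ran through the loop and the whole T arm. C50T lies in the 5′ strand of that arm. Every Cys-3 fragment listed down is contained in the 22 to 68 fragment. Within the Cys-3 set, those listed up and down therefore differ in their ends and not in the stretch of tRNA they share. The Cys-4 fragments, all listed down, also differ from both fragments listed up at position 50. In 39 of its 41 genes the Cys-4 set sits at the positions given, and in the other two genes Cys-4 24 to 54 is numbered 17 to 47 and 23 to 53. The parent length in the tables runs 1 past the CCA tail, since all 49 listed tRFs that ended 1 base before that length ended in CCA. By that count the fragments ending at 68 stopped 7 bases before the end of the tail.

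**Figure D1:**
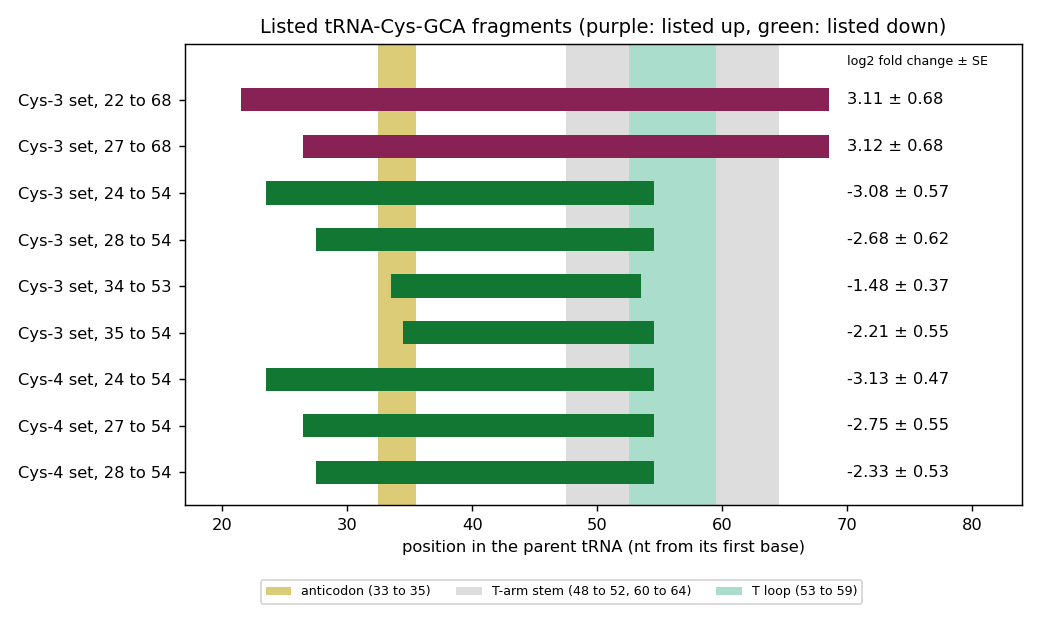
Position of each listed tRNA-Cys-GCA fragment (bars) along its parent tRNA in nucleotides, with the anticodon and T arm shaded and the log2 fold change of cytokine over control with its SE at the right. The 2 fragments listed up end at position 68, and the 7 listed down end at 53 or 54.

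These rows were chosen because they differed between the same 8 libraries. Every tRF the authors listed had an edgeR false discovery rate (FDR) under 0.05, a limit taken here from the listed values. Their FDR and p-values imply 31661 tested, of which 0.0916% were listed as higher and 0.262% as lower. The values below therefore describe the members and are no test. In the authors' deposited table the members' FDR ran from 3.6e-05 for Cys-4 24 to 54 to 0.0386 for Cys-3 35 to 54, the member nearest the limit. The largest FDR of any tRF in the authors' deposited table was 0.0489, and tRFs beyond the limit were not analysed here. In the authors' deposited table DESeq gave an adjusted p above 0.05 to 2 members, 0.0695 for Cys-3 35 to 54 and 0.0623 for Cys-3 22 to 68. CPM below divides each read count by the effective size of its library, as recovered from the authors' values, and the log2 fold changes (cytokine over control, with SE) come from an edgeR fit over all 112 listed tRFs.

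The fragments ending at position 68 were nearly absent from controls. Cys-3 27 to 68 gave 2, 0, 2 and 1 reads in control replicates 1 to 4, and its reads in cytokine replicates 1 to 4 were 9, 9, 15 and 10. Untreated cells averaged 2.47 ± 2.29 CPM and treated cells 20.2 ± 7.01 CPM (SD, 4 libraries each), and the log2 fold change was 3.12 ± 0.68 (SE). All 4 cytokine libraries lay above all 4 controls, although cytokine replicate 4, the deepest library, was the lowest of its group at 10.6 CPM. Cys-3 22 to 68 had 1, 1, 0 and 1 reads in the controls and 4, 4, 9 and 11 with cytokines. Untreated cells averaged 1.07 ± 0.723 CPM and treated cells 11.7 ± 2.99 CPM (SD, 4 libraries each), and the log2 fold change was 3.11 ± 0.68 (SE). Again the groups did not overlap. With so few control reads the fitted fold change depends on the prior count, so pooled reads are given too. The ratio of pooled reads scaled to library size was 9.92 for 22 to 68 (28 against 3 reads, exact 95% interval 3.07 to 51.0) and 9.14 for 27 to 68 (43 against 5 reads, 3.63 to 29.6). These intervals cover counting error only. A single library's floor of 3 reads stood for 3.19 to 8.16 CPM, and each control library was at or under its own floor for both fragments.

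The most abundant member was the 20 nt fragment Cys-3 34 to 53, which starts at the second anticodon base and ranked 6 of 112 listed tRFs by mean CPM. It stood at 347, 268, 333 and 459 CPM in control replicates 1 to 4 and at 128, 112, 109 and 155 CPM in cytokine replicates 1 to 4. The lowest control was above the highest cytokine library. Its log2 fold change of -1.48 ± 0.37 (SE) was the smallest in size of all 112 listed tRFs. The fragment shifted by 1 base at both ends, Cys-3 35 to 54, was rarer and had 62 reads in all controls and 13 with cytokines. It stood at 18.0, 22.7, 24.2 and 34.9 CPM in the controls and at 2.72, 2.15, 5.26 and 8.52 CPM with cytokines, a log2 fold change of -2.21 ± 0.55 (SE). These fragments keep 2 and 1 bases of the anticodon, and the other 7 members keep all 3.

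The Cys-4 fragments all start upstream of the anticodon, and by mean CPM 24 to 54 and 27 to 54 were the next most abundant members. Cys-4 24 to 54 stood at 97.6, 77.1, 220 and 177 CPM in control replicates 1 to 4 and at 19.1, 8.61, 14.0 and 21.3 CPM in cytokine replicates 1 to 4. Control replicates 3 and 4 were the highest, and the groups did not overlap. Its log2 fold change was -3.13 ± 0.47 (SE). Cys-4 27 to 54 stood at 39.0, 26.5, 132 and 111 CPM in the controls and at 16.3, 8.61, 12.3 and 8.52 CPM with cytokines. The same control replicates stood high, and the log2 fold change was -2.75 ± 0.55 (SE). Cys-4 28 to 54, shorter by 1 base at its 5′ end, averaged 38.9 ± 12.3 CPM in untreated and 7.76 ± 3.43 CPM in treated cells (SD, 4 libraries each), with a log2 fold change of -2.33 ± 0.53 (SE).

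The remaining Cys-3 fragments listed down were rarer in controls than 34 to 53. Cys-3 24 to 54 had 22, 15, 18 and 42 reads in the controls and 1, 2, 3 and 5 with cytokines. It averaged 41.0 ± 19.3 CPM in untreated and 4.40 ± 1.21 CPM in treated cells (SD, 4 libraries each), with a log2 fold change of -3.08 ± 0.57 (SE). Cys-3 28 to 54 averaged 42.8 ± 26.6 CPM in untreated and 5.88 ± 5.55 CPM in treated cells (SD, 4 libraries each), with a log2 fold change of -2.68 ± 0.62 (SE). Control replicate 4 was its highest library at 80.3 CPM, and cytokine replicate 2 had 0 reads, which at that depth allows up to 6.45 CPM. Without control replicate 4 the log2 fold change was -2.14. The groups did not overlap in any of the 9 members, as in 98.2% of the 112 listed tRFs, so this count says nothing particular about tRNA-Cys.

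**Figure D2:**
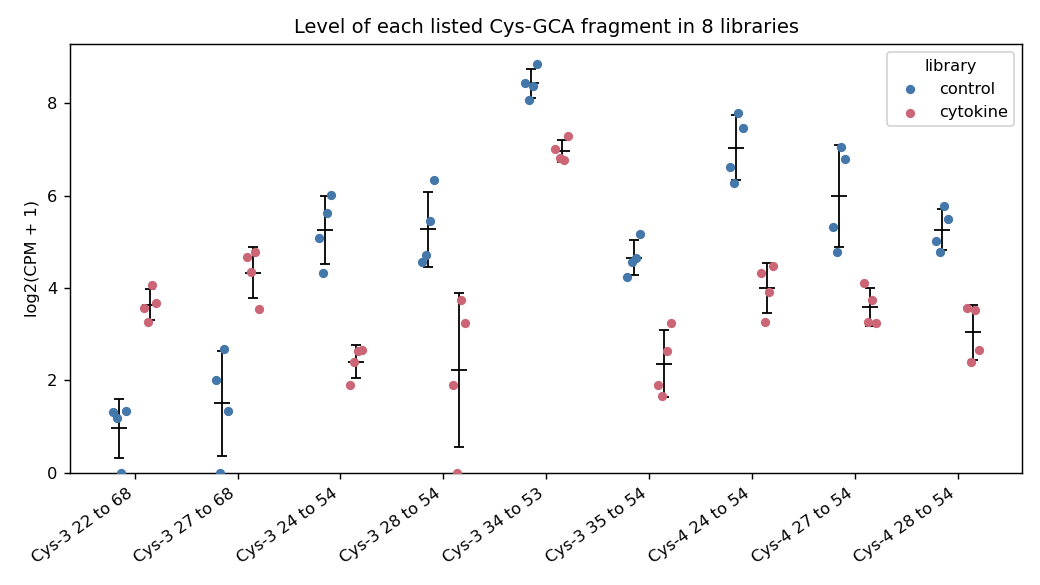
Level of each member as log2(CPM + 1) in the 4 control (blue) and 4 cytokine (red) libraries, with the group mean and SD as black bars. In each member the groups do not overlap, with the cytokine libraries higher for the 2 fragments ending at 68 and lower for the other 7.

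Summed over the 7 members listed down, untreated cells averaged 719 ± 233 CPM and treated cells 176 ± 30.4 CPM (SD, 4 libraries each), a ratio of means of 4.09. The sum of the 2 listed up averaged 3.54 ± 1.80 CPM in untreated and 31.9 ± 8.60 CPM in treated cells (SD, 4 libraries each), so by level it was far smaller than the sum of those listed down in both groups. The Cys-3 fragments listed down summed to 460 ± 128 CPM in untreated and 141 ± 25.7 CPM in treated cells, a ratio of 3.27 (SD, 4 libraries each). The Cys-4 fragments summed to 259 ± 131 and 34.9 ± 10.2 CPM, a ratio of 7.41 (SD, 4 libraries each). The Cys-3 value is carried by 34 to 53, the member with the smallest change.

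Shares of the members' own reads need no library size. Of the 395, 369, 320 and 642 reads of listed tRNA-Cys fragments in control replicates 1 to 4, those ending at position 68 made up 0.759%, 0.271%, 0.625% and 0.312%. Of the 80, 78, 120 and 221 reads in cytokine replicates 1 to 4 they made up 16.3%, 16.7%, 20.0% and 9.50%. These are the members listed up against those listed down on the same libraries, so a higher share with cytokines was fixed by the listing, and the size of the share is given as a description. The exact 95% binomial (Clopper-Pearson) interval was 5.98% to 14.2% in cytokine replicate 4, the lowest of its group, for counting error only. The Cys-4 set made up 28.4%, 27.9%, 47.2% and 34.1% of these reads in the controls and 21.3%, 12.8%, 17.5% and 14.9% with cytokines. Every cytokine library was below every control library, and control replicate 3 stood apart from the other controls. Cys-3 34 to 53 and the fragments ending at 68 enter this share through its denominator. All Cys-4 members were listed down and the denominator holds the members listed up, so the listing itself favoured a lower Cys-4 share with cytokines. Without 34 to 53 the Cys-3 fragments listed down summed to 109 ± 51.5 CPM in untreated and 14.9 ± 8.84 CPM in treated cells (SD, 4 libraries each), a ratio of 7.28 beside 7.41 for the Cys-4 set. The most abundant member, Cys-3 34 to 53, made up 50.5 ± 9.33% in controls and 60.8 ± 7.06% with cytokines (SD, n = 4 per group), and here the groups overlapped.

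**Figure D3:**
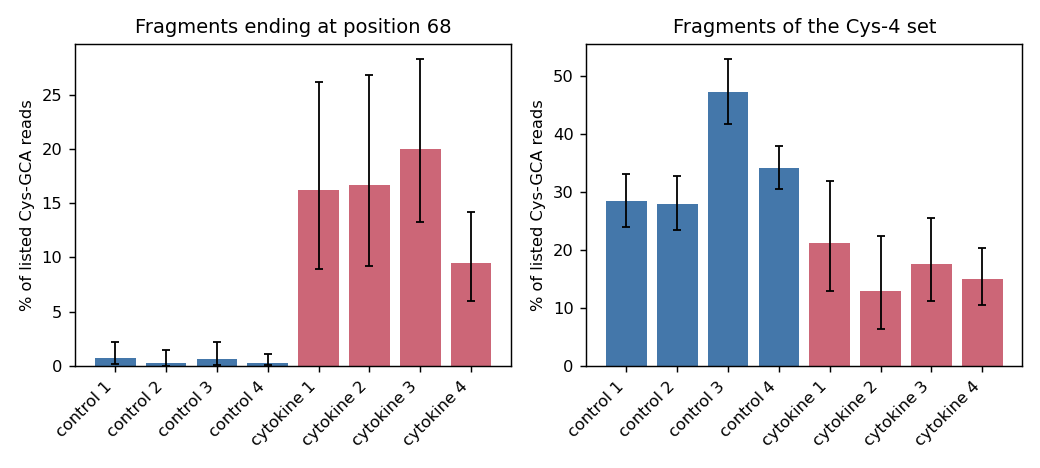
Percent of the reads of the 9 listed tRNA-Cys-GCA fragments that end at position 68 (left) or belong to the Cys-4 set (right) in each library, with exact 95% binomial intervals (counting error only) as error bars. Reads ending at 68 are under 1% in each control and 9.50% to 20.0% with cytokines, and the Cys-4 share is lower in each cytokine library than in each control.

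Fragments of both sets were listed at positions 24 to 54 and 28 to 54, which allowed sequences 1 base apart to be compared within each library. These are all the positions listed in both sets. The ratio was not used to list the tRFs, but the comparison was chosen after the counts had been seen. Its p-values ask whether the mean log2 ratio over these libraries differs from 0. They are not independent evidence, and the adjustment over 2 pairs does not cover the choice of this comparison. At positions 24 to 54 the Cys-4 sequence had more reads than the Cys-3 sequence in 8 of 8 libraries, for example 65 against 22 in control replicate 1 and 4 against 2 in cytokine replicate 2. The mean log2 ratio of reads (0.5 reads added to each) was 1.69 ± 0.49 (SD, n = 8), a 3.22-fold ratio with a 95% interval of 1.23 to 2.12 on the log2 scale (exact sign-flip permutation test over libraries, two-sided, p = 0.00781, the smallest it can give, adjusted p = 0.0156 over 2 pairs). It was 1.79 ± 0.34 in controls and 1.59 ± 0.65 with cytokines (SD, n = 4 per group). At positions 28 to 54 the Cys-4 sequence had more reads in 5 of 8 libraries, with a mean log2 ratio of 0.38 ± 1.08 (SD, n = 8) and an interval of -0.47 to 1.39 (exact sign-flip permutation test, two-sided, p = 0.391, adjusted p = 0.391). In the cytokine libraries that pair had 4, 2, 6 and 5 reads of the Cys-4 and 1, 0, 7 and 8 reads of the Cys-3 sequence. Its interval takes in equal reads, and the difference between the pairs was not tested. The Cys-4 sequence matches 41 genes and the Cys-3 sequence 6, so the first pair's ratio is smaller than the ratio of gene numbers.

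**Figure D4:**
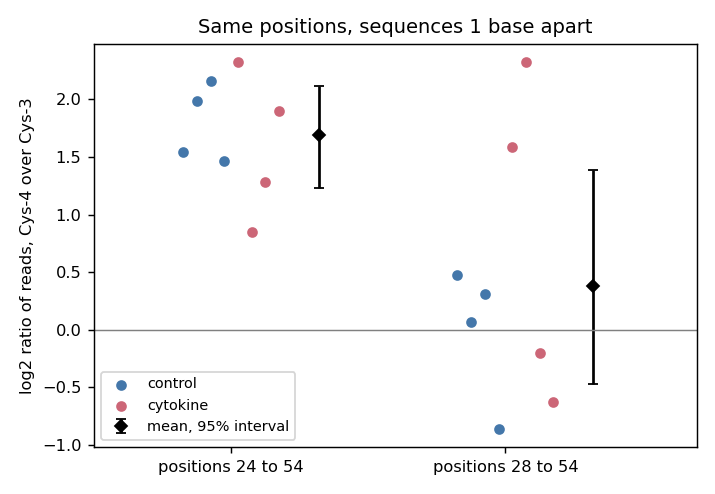
Log2 ratio of Cys-4 over Cys-3 reads in each of 8 libraries (control blue, cytokine red) at positions 24 to 54 and 28 to 54, with the mean and its 95% interval from the sign-flip test as black diamonds. At 24 to 54 each library lies above 0, and at 28 to 54 the libraries lie on both sides of 0.

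Among the 103 other listed tRFs, 27 were listed up (median log2 fold change 3.08) and 76 down (median -2.60), and the members' medians were 3.11 and -2.68. Of the 45 other internal tRFs 26 were listed up (median log2 fold change 3.12) and 19 down (median -3.42, a larger change than the members' -2.68). Among internal tRFs of other tRNAs, ends at position 53 or 54 were listed in both directions, and ends at position 60 or later in 1. Of the 18 other internal tRFs that ended at position 53 or 54, 13 were listed down (6 of tRNA-Arg, 5 of tRNA-Pro and 2 of tRNA-Lys) and 5 up, which were all of tRNA-His. All 10 other internal tRFs ending at position 60 or later were listed up, 3 each of tRNA-Arg and tRNA-Lys and 1 each of tRNA-His, tRNA-Leu, tRNA-Phe and tRNA-Trp. By length, 11 of the 13 other internal tRFs of 31 nt or less were listed down, and all 3 of 42 nt or more, from tRNA-Lys, were listed up. Position 54 is numbered within each tRNA, so the same number need not be the same structural site in each. By isotype, the other listed tRFs were 3 up and 58 down for tRNA-Arg, 9 up and 3 down for tRNA-His, 7 up and 8 down for nuclear tRNA-Pro and 3 up and 3 down for tRNA-Lys.

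The summed tRNA-Cys level over the 8 libraries was most like that of 3′ fragments of other tRNAs. Such fragments were common in the list, where 49 of 112 tRFs ended in CCA. The profiles also carry the group difference by which the tRFs were listed, so the likeness is a description. The measure was the root mean square difference between log2(CPM + 1) profiles, each centred on its own mean, over 8 libraries and 103 tRFs. The closest was Arg-TCG-3 35 to 76 at 0.20, followed at 0.23 by positions 43 to 76 of the sequence in both Arg-TCG-2 and Arg-CCG-1 and at 0.27 by Asp-GTC-1 34 to 75. Arg-TCG-3 35 to 76 averaged 736 ± 307 CPM in untreated and 185 ± 47.4 CPM in treated cells (SD, 4 libraries each). Within the members the difference from the sum was 0.25 for 34 to 53, the most abundant, and 2.29 and 2.39 for the fragments ending at 68.

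The direction of the 2 fragments ending at 68 was the same under each of 5 scalings of the libraries, and that of 34 to 53 was not. Each alternative scaling moved the log2 fold changes of all listed tRFs up, by a median of at least 0.11 (authors' DESeq size factors). The fragments listed up were thereby moved further from 0, so their unchanged direction was no test of it. When TMM factors or DESeq2 factors were taken from the listed tRFs themselves, the log2 fold changes of all listed tRFs moved up by a median of 1.73 and 1.95. Cys-3 34 to 53 then had log2 fold changes of 0.29 ± 0.30 and 0.51 ± 0.31 (SE). The other 6 members listed down stayed below 0 with both (6 of 7, beside 94.0% and 81.9% of all tRFs listed down). Some of these values were closer to 0 than their SE. They were Cys-3 35 to 54 at -0.475 ± 0.492 (TMM) and -0.262 ± 0.495 (DESeq2 factors), and Cys-4 28 to 54 at -0.371 ± 0.442 (DESeq2 factors). The remaining values of the 6 members were further from 0 than their SE. Groups did not overlap in 4 of the 9 members with either kind of factor (43.8% of all listed tRFs with TMM and 37.5% with DESeq2 factors) and in 8 of 9 with listed reads as library sizes (79.5%). Both kinds of factor were computed from tRFs of which 83 of the 112 were listed down, so an upward shift is built in. As a share of all listed reads the members went from 5.01 ± 1.27% to 2.41 ± 0.60% (SD, n = 4 per group). Among reads of tRFs listed down only, the 7 members listed down held 5.23 ± 1.29% in controls and 5.66 ± 0.28% with cytokines (SD, n = 4 per group), with overlapping groups.

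**Figure D5:**
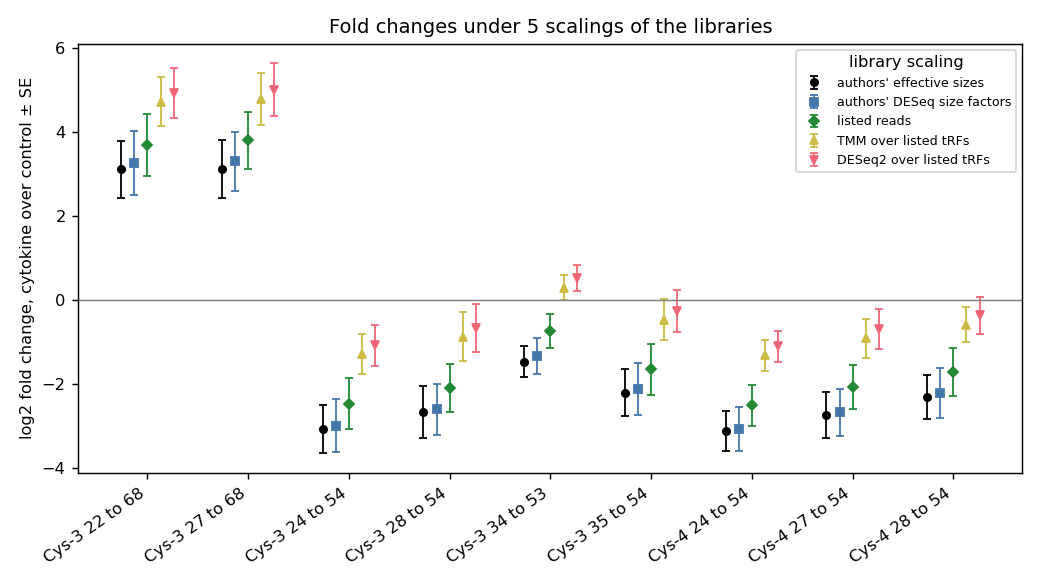
Log2 fold change of cytokine over control with its SE (edgeR) for each member under 5 scalings of the libraries. The fragments ending at 68 lie above 0 with each scaling, and of those listed down 34 to 53 alone lies above 0, with the TMM and DESeq2 factors over the listed tRFs.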

How the data were processed

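The authors counted small RNA reads per distinct tRF sequence and deposited raw read counts for 8 libraries, per the file headers. Bowtie 1 and GRCm38.p6 are named, per the submitters' processing notes. Per the file headers the authors also deposited 2 kinds of TPM, which were not used because reads over TPM gave the same constant in all libraries (13345182 and 873510 reads). The authors' log2 fold changes, mean log2 CPM, p-values and FDR (edgeR), and DESeq base means (a signal), log2 fold changes, adjusted p-values and test statistic (a score), are in the same tables, per the file headers. FDR, rank and p gave 31661 tested tRFs at all 69 untied ranks.

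Library sizes and 1 dispersion (0.246) were fitted with minpack.lm 1.2.4 so that edgeR 4.0.16 returned the authors' mean log2 CPM within 1e-10 (prior count 2); they may include the authors' scaling factors. The edgeR fit (glmQLFit and glmQLFTest, treatment only, no further scaling, no filter) used all 112 tRFs, and its log2 fold changes differed from the authors' by a median of 0.00218. SE is the log2 fold change over the square root of F. Scripts were tested on simulated data. Labels gave 4 control and 4 cytokine libraries.

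Alternatives were other library scalings, DESeq2 1.42.0, a filter on low counts, a replicate block, other sums and each library left out. Values in every library are given for the 3 members with the highest mean CPM and the 3 with the largest absolute log2 fold change, and for any member whose groups overlap. The comparison of sequences 1 base apart was chosen after seeing the data. Members and lists were chosen with earlier results of these data known.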

Additional observations from a re-analysis of the deposited data

Results flagged for a closer look

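In 1 of 34 groups of 4 values screened, 1 library lay far from the others: control replicate 3 had 0 reads (0.0 CPM) of Cys-3 22 to 68, where the other controls had 1 read each. Chance alone flags about 1 in 20 groups of continuous values. That rate need not hold for counts this low, and the difference is a single read.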

How the results depend on the processing

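All 9 members kept their direction with the authors' DESeq size factors, listed reads as library sizes, a replicate block, a DESeq2 fit, each library left out, and, for those it kept, the low-count filter (10 reads in total and 5 reads in 4 libraries), which removed Cys-3 22 to 68. The median log2 fold change of the 7 listed down was -2.68, and it was -0.88 with TMM factors over the listed tRFs, -0.66 with DESeq2 factors over them and -2.08 with listed reads. For the 2 listed up it was 3.11, and 4.75 and 4.97 with those factors. Cys-3 34 to 53 turned to 0.29 and 0.51. The log2 difference of the sum over all 9 was -1.75, -0.002 (TMM), 0.23 (DESeq2 factors), -1.05 (listed reads) and -1.31 as a mean of log2(CPM + 1). Groups did not overlap in 9 of the 9 members, in 4 with either set of factors (43.8% and 37.5% of all listed tRFs) and in 8 with listed reads (79.5%). The share of reads differed by -2.59 percentage points, and by 0.43 among reads listed down only. Both sets of factors were computed from tRFs mostly listed down, so they shift fold changes upward by construction.

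Leaving out each library gave median log2 fold changes of -2.90 to -2.25 (listed down) and 2.88 to 3.29 (listed up). The log2 difference of the sum ran from -1.94 to -1.59, and the share differed by -3.03 to -2.09 points. Mean log2 ratios of Cys-4 over Cys-3 reads were 1.60 to 1.81 (24 to 54) and 0.11 to 0.56 (28 to 54). The largest move of a member's fold was 1.45 times. Nothing in the labels says whether control and cytokine libraries of the same replicate number belong together, and a pairing was not tested. Correlations of their deviations were -0.29 to 0.17. With the replicate block the medians were -2.67 and 3.08. The SE of each member was smaller with the block, for example 0.268 against 0.367 for Cys-3 34 to 53. Depth limits the fragments ending at 68 most, with 3 and 5 control reads.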
